A study of Rattus norvegicus with 20 samples.

Results

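The natriuretic peptide system is described here as 8 genes named by function: the peptide genes Nppa and Nppb, the receptor genes Npr1, Npr2 and Npr3, the protease genes Corin and Mme, and the phosphodiesterase gene Pde5a. Of these 8 genes, 7 were found among the 15503 genes of the deposited table, and all 7 passed the filter on low counts. Corin was not analysed here. Nppa encodes atrial natriuretic peptide (ANP) and Nppb encodes B-type natriuretic peptide (BNP), hormones that heart muscle cells secrete when they are stretched or stressed. Npr1 and Npr2 are receptors whose intracellular part makes the second messenger cGMP, Npr1 answering mainly to ANP and BNP and Npr2 to the related C-type peptide. Npr3 lacks that cyclase and removes the peptides from the surroundings. Mme, also called neprilysin, cuts the peptides, Corin turns the ANP precursor into the hormone, and Pde5a breaks cGMP down. Cardiomyocytes of newborn animals are known to express Nppa in ventricle as well as atrium, and a rise of Nppa and Nppb is a widely used sign of cardiomyocyte stress.

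Messenger RNA of neonatal rat cardiomyocytes was sequenced after 72 h in 4 conditions, with 5 libraries in each and 20 in all. Cells received PBS as the control, 100 nM histidine, 1 µM doxorubicin, or 100 nM histidine with 1 µM doxorubicin, which is called both compounds below. The series concerns plasma histidine and recurrent atrial fibrillation after ablation, and doxorubicin is an anthracycline used against cancer whose use is limited by damage to the heart. The labels give no strain, sex or heart chamber for the cells, and they do not say whether the 5 libraries of a group were separate cultures. The p-values below therefore reflect the spread between libraries, and that spread may be technical.

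Nppb and Nppa lie side by side on chromosome 5. In the build mRatBN7.2, to which the coordinates of the table belong, Nppb (ENSRNOG00000008141) spans chr5:158416866-158418168 and Nppa (ENSRNOG00000008176) spans chr5:158429042-158430351, both on the plus strand with 10873 bases between them. The 250 bases before the start of each gene are shown because the pair is known to share regulators and because the counts of both genes fell under doxorubicin. The sequences are from RefSeq, build GRCr8, plus strand, at chr5:163711934-163712183 for Nppa and chr5:163699758-163700007 for Nppb. Capitals mark matches to the GATA motif (A or T, then GATA, then A or G) and, in Nppb, to the opposite strand of the M-CAT motif CATTCC, which TEAD factors bind.
Nppa: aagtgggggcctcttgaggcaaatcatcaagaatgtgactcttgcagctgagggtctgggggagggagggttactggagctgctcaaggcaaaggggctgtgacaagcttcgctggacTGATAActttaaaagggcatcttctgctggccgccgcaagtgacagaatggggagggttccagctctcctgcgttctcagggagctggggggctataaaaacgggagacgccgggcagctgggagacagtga
Nppb: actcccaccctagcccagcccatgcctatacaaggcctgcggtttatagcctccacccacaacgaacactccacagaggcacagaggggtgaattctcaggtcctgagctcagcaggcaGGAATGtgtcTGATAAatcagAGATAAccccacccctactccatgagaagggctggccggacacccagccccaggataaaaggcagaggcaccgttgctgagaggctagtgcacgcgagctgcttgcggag
The Nppa window held 1 GATA match, TGATAA, at 132 to 127 bases before the start. The Nppb window held 2 GATA matches, TGATAA at 121 to 116 and AGATAA at 110 to 105 bases before the start, beside the M-CAT match at 131 to 126. Of 33469 promoter windows of the same length, 27.0% held a GATA match on either strand and 12.1% held CATTCC. The NKX2-5 motif TNAAGTG (9.89% of windows), the AP-1 motif TGANTCA (6.34%) and the CArG box (1.5%) had no match in either window, which says only that these letters are not there. Promoter entries were held for 7 of the 8 genes, all but Npr2. Among the other 5, Npr3 held 1 GATA match, and the remaining 4 held no match to any of the motifs.

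The counts of each library summed to between 53246205 and 83624651, and the genes of the system were counted with 233 to 13232 reads in a library. Levels below are CPM, reads relative to the TMM-scaled library total, with mean ± SD over 5 libraries. The first principal component, 62.6% of the variance, separated the libraries with doxorubicin from those without. Replicate 4 of the doxorubicin group stood apart on the second component (7.43%), at 107.9 where the other 19 libraries lay between -18.9 and 9.03. Of 15431 genes, 15.4% had that library far above the other 4 of its group and 6.01% far below, by the criterion given in the closing section. Results are therefore given with and without it.

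The cultures held transcripts of several cell types. In PBS, 9 measured cardiomyocyte markers (Myh6, Myh7, Tnnt2, Tnni3, Actn2, Myl2, Myl3, Mybpc3, Ryr2) summed to 604 ± 44.5 CPM, 3 atrial markers (Myl4, Myl7, Sln) to 6.99 ± 0.648 CPM, and 8 fibroblast markers to 79671 ± 3083 CPM. No measured cardiomyocyte marker was at 0 reads in all libraries of a group, but fibroblast and smooth muscle transcripts were far more abundant in cultures labelled as cardiomyocytes. In such bulk samples, fewer cells of a type and less RNA per cell cannot be told apart.

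Per transcript length, Nppa was the most abundant of the 7 genes in PBS, at 159.9 ± 18.4 FPKM, rank 308 of the 15503 genes and so within the top 1.99%. Npr3 followed at 82.4 ± 11.5 FPKM, Nppb at 41.6 ± 5.60 and Npr2 at 20.8 ± 0.831, and the 5 libraries of each of these genes did not overlap with those of its neighbours in the order. Pde5a (4.57 ± 0.292 FPKM) and Npr1 (4.25 ± 0.479) overlapped, and Mme was lowest at 3.07 ± 0.295 FPKM. The clearance receptor was therefore the receptor with the highest transcript level and the ANP receptor the one with the lowest. In histidine the first 4 genes kept this order, and Npr1, Pde5a and Mme, at 4.54, 3.93 and 3.28 FPKM, overlapped with their neighbours. With doxorubicin the order was Nppa (69.1 ± 40.1 FPKM), Npr3 (35.0 ± 4.90), Npr2 (26.4 ± 4.81) and Nppb (13.1 ± 6.35), where Npr3 and Npr2, and Npr2 and Nppb, overlapped. With both compounds the same 4 genes stood in the same order without overlap, at 58.3 ± 3.08, 40.3 ± 3.33, 30.5 ± 1.86 and 7.36 ± 1.73 FPKM. The authors' FPKM and the counts gave slightly different scales for Nppa, whose reads per FPKM varied 1.205 times across libraries after allowing for the library total. A spread at least that wide was found for 8.37% of 10528 genes with at least 200 reads in every library, so tests below rest on counts.

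**Figure D1:**
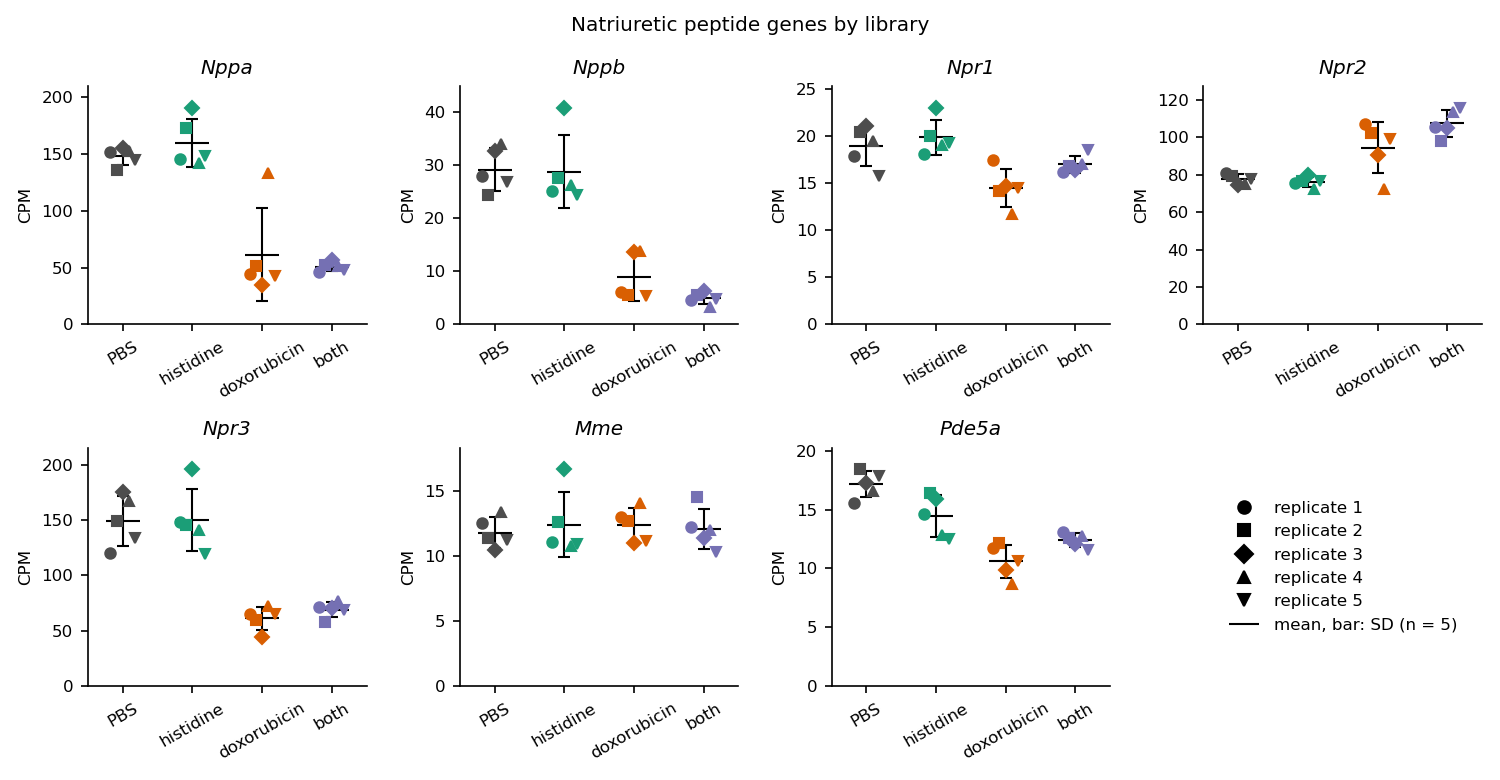
CPM (TMM-scaled, axes from 0) of the 7 measured genes in each of the 20 libraries, with a symbol for each replicate number, a line at the group mean and a bar for the SD (n = 5). Nppa, Nppb, Npr3 and Pde5a lie lower in the doxorubicin libraries than in every PBS library, and doxorubicin replicate 4 is the high point of Nppa at 134 CPM.

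With doxorubicin, transcripts of both cardiac peptides, the clearance receptor, the ANP receptor and Pde5a were lower than in PBS, and those of Npr2 were higher. Against PBS, 6 of the 7 genes passed the test (edgeR, adjusted p under 0.05), 1 higher and 5 lower. Over all 15449 genes tested, 43.2% passed, 21.7% higher and 21.5% lower, so a call by itself was common. In 4 genes, all lower, the 5 libraries of each group did not overlap in CPM, which held for 31.1% of all genes (13.6% higher, 17.5% lower). The median log2 fold change of the 7 genes was -0.69, beside 0.05 over all genes tested. Without doxorubicin replicate 4 the same 6 genes passed, with Npr3 at -1.35 ± 0.14, Npr1 at -0.32 ± 0.09 and Pde5a at -0.63 ± 0.09. In the presence of histidine, 4 genes passed the test for both compounds against histidine, 1 higher (Npr2) and 3 lower (Nppa, Nppb, Npr3). In that comparison 40.2% of all genes passed, 19.9% higher and 20.3% lower. The same 4 genes had libraries that did not overlap, as did 35.2% of all genes (16.5% higher, 18.7% lower). These 2 comparisons share no library. For both compounds against PBS, which shares libraries with each of them, 5 genes passed, 1 higher and 4 lower, and all 5 did not overlap. There 39.9% of all genes passed (19.2% higher, 20.7% lower) and 38.0% did not overlap (17.6% higher, 20.4% lower).

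Nppa, the ANP gene, was at 152, 136, 156, 153 and 145 CPM in PBS replicates 1 to 5. With doxorubicin it was at 44.9, 51.6, 34.5, 134 and 42.8 CPM. The PBS libraries were all above the doxorubicin libraries, and 4 of the 5 doxorubicin libraries lay far below while replicate 4 came close to the PBS range. In the authors' FPKM the groups overlapped, with doxorubicin replicate 4 at 139.7 and PBS replicate 2 at 127.6. The means were 148 ± 7.85 and 61.5 ± 40.9 CPM, a log2 fold change of -1.27 ± 0.25 (SE), or 2.41-fold lower, with an edgeR adjusted p of 0.000426642. Without doxorubicin replicate 4 the mean was 43.4 ± 7.05 CPM (n = 4) and the log2 fold change -1.77 ± 0.11, or 3.42-fold lower. With histidine Nppa was at 146, 173, 191, 142 and 148 CPM, and with both compounds at 46.4, 52.3, 57.0, 51.3 and 48.1 CPM. The 5 libraries with both compounds were close together and far below every histidine library. Both compounds against histidine gave -1.65 ± 0.26, or 3.14-fold lower, with an edgeR adjusted p of 3.06419e-05, and against PBS -1.54 ± 0.26.

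Nppb, the BNP gene, was at 28.0, 24.4, 32.6, 33.9 and 26.7 CPM in PBS and at 6.13, 5.63, 13.7, 13.9 and 5.28 CPM with doxorubicin. Every doxorubicin library was below every PBS library, with replicates 3 and 4 above the other 3. The means of 29.1 ± 4.01 and 8.92 ± 4.44 CPM gave a log2 fold change of -1.71 ± 0.26, or 3.26-fold lower, with an edgeR adjusted p of 2.36614e-05. Without replicate 4 the doxorubicin mean was 7.68 ± 4.01 CPM (n = 4), and the log2 fold change was -1.92 ± 0.26, or 3.79-fold lower. Without replicates 3 and 4 they were 5.68 ± 0.427 CPM (n = 3) and -2.36 ± 0.20, or 5.13-fold lower. Replicates 3 and 4 held the highest Nppb of the group, so leaving both out makes the fall larger by construction. On the second component replicate 3 lay among the other libraries (-11.7), and 0.901% of genes had it far above the rest of its group. With histidine Nppb was at 25.1, 27.5, 40.8, 26.2 and 24.3 CPM, and with both compounds at 4.53, 5.61, 6.31, 3.33 and 4.71 CPM. The groups did not overlap, and histidine replicate 3 was the high library. Both compounds against histidine gave -2.55 ± 0.27, or 5.87-fold lower, with an edgeR adjusted p of 2.14876e-07, and against PBS -2.57 ± 0.27. Nppb had the largest fall of the 7 genes in each of these 3 comparisons.

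**Figure D2:**
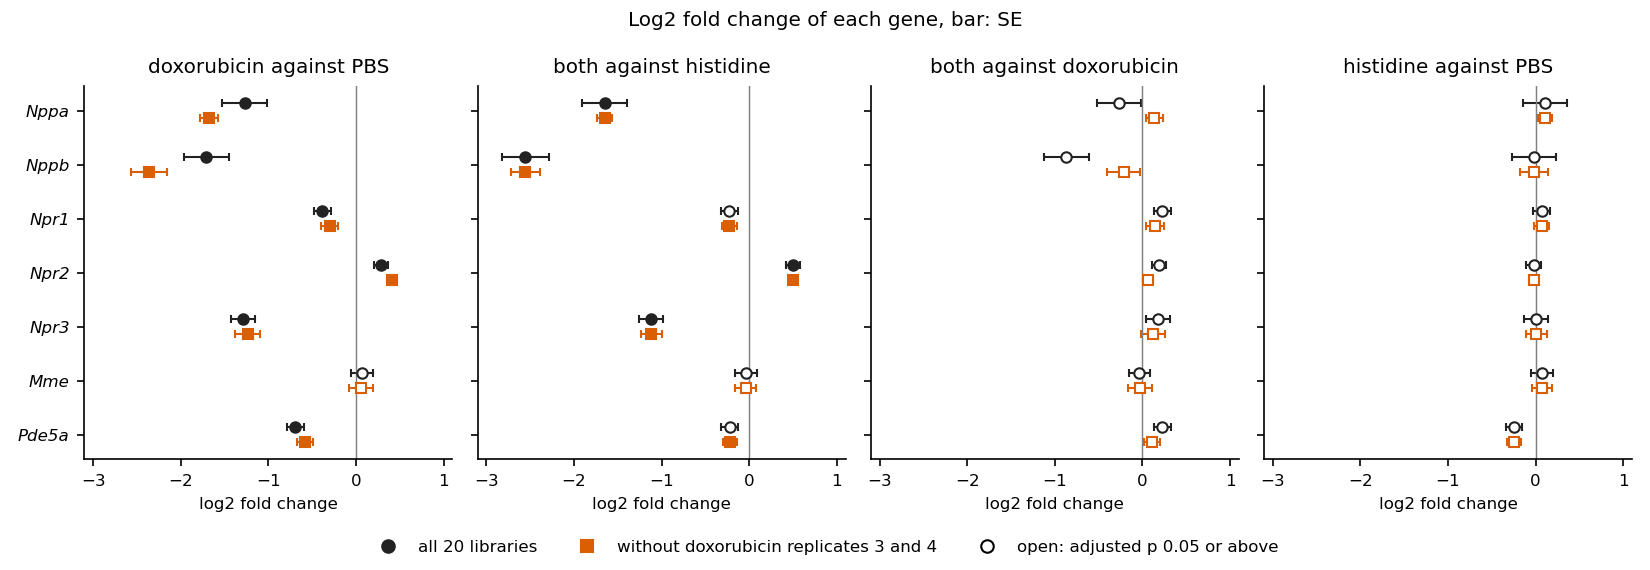
Log2 fold change of each gene (x axis, bar SE) in 4 comparisons from the edgeR fit of all 20 libraries (black circles) and from the fit without doxorubicin replicates 3 and 4 (orange squares), with open symbols where the adjusted p was 0.05 or above. Nppa, Nppb and Npr3 lie furthest left in both comparisons of doxorubicin with its absence, Nppb furthest, and every symbol is open for both compounds against doxorubicin and for histidine against PBS.

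Cardiomyocyte markers fell as well, some further than the peptide transcripts and some less. The 9 markers summed to 92.6 ± 9.19 CPM with doxorubicin (84.2 to 108) against 604 ± 44.5 CPM in PBS (547 to 667), and to 92.6 ± 7.49 CPM with both compounds against 539 ± 33.5 CPM in histidine. All 9 passed the test as lower in doxorubicin against PBS and in both compounds against histidine, with median log2 fold changes of -3.39 and -3.38. In doxorubicin against PBS all 9 markers had a lower log2 fold change than Nppa, but 6 of 9 without doxorubicin replicate 4, and 6 of 9 a lower one than Nppb with or without that library. In both compounds against histidine 5 of 9 had a lower one than Nppa, and 5 of 9 than Nppb. Markers of other cell types moved too. For doxorubicin against PBS all 7 macrophage and leukocyte markers fell, summing to 1534 ± 20.6 CPM in PBS and 51.7 ± 8.99 with doxorubicin. Of 7 smooth muscle and pericyte markers 5 fell and 0 rose, with sums of 7155 ± 406 and 3823 ± 1142 CPM. Of 8 fibroblast markers 3 fell and 1 rose. Their sum, 79671 ± 3083 CPM in PBS and 46630 ± 10128 with doxorubicin, was mostly Col1a1, Col1a2 and Col3a1, while Dcn was at 45.1 and 85.8 CPM and Lum at 54.8 and 53.8 CPM. Of 6 endothelial markers 4 fell and 1 rose. Tie1 was at 4.42 CPM in PBS and 0.288 with doxorubicin and Cdh5 at 1.83 and 0.119, but Tek at 7.39 and 13.4, so that the sums, 18.8 ± 4.34 and 15.8 ± 2.99 CPM, combine changes in both directions. Of 4 epicardial and mesothelial markers 2 rose and 0 fell. Their sum of 36.6 ± 3.12 CPM in PBS and 75.4 ± 9.75 with doxorubicin differed mostly through Upk1b, at 1.56 and 35.9 CPM. The part of these shifts in the results for the natriuretic peptide genes was not tested.

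Set against the cardiomyocyte marker sum of the same library, Nppa was at 0.247 ± 0.0256 in PBS (0.226 to 0.285), 0.298 ± 0.0399 in histidine, 0.673 ± 0.469 with doxorubicin (0.409 to 1.50) and 0.555 ± 0.0661 with both compounds (0.462 to 0.603). The libraries with doxorubicin were all above those without on this scale, but Myh6, Myh7 and Tnnt2, at 179, 161 and 164 CPM, made up most of the sum in PBS, and the direction depended on the marker. Per single marker, the mean ratio of Nppa was higher for 9 of 9 markers in doxorubicin against PBS, with groups that did not overlap for 5. Without doxorubicin replicate 4 it was higher for 6 of 9. In both compounds against histidine it was higher for 5 of 9, and the groups of these 5 did not overlap. Per Actn2, for example, Nppa was at 4.91 ± 0.622 in PBS and 3.61 ± 0.703 with doxorubicin without replicate 4 (n = 4), and at 6.07 ± 0.355 in histidine and 5.01 ± 0.791 with both compounds. Nppb set against the marker sum was at 0.0487 ± 0.00938 in PBS, 0.0537 ± 0.0140 in histidine, 0.0990 ± 0.0550 with doxorubicin and 0.0529 ± 0.0120 with both compounds, and these groups overlapped. The ratio of Nppa to Nppb in CPM was 5.15 ± 0.474 in PBS (4.50 to 5.58), 5.67 ± 0.642 in histidine, 7.35 ± 2.85 with doxorubicin and 10.8 ± 2.60 with both compounds (9.03 to 15.4). With both compounds every library was above every PBS and histidine library, while doxorubicin alone ranged from 2.52 in replicate 3 to 9.65 in replicate 4. These ratios are descriptions of the libraries, with no test.

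**Figure D3:**
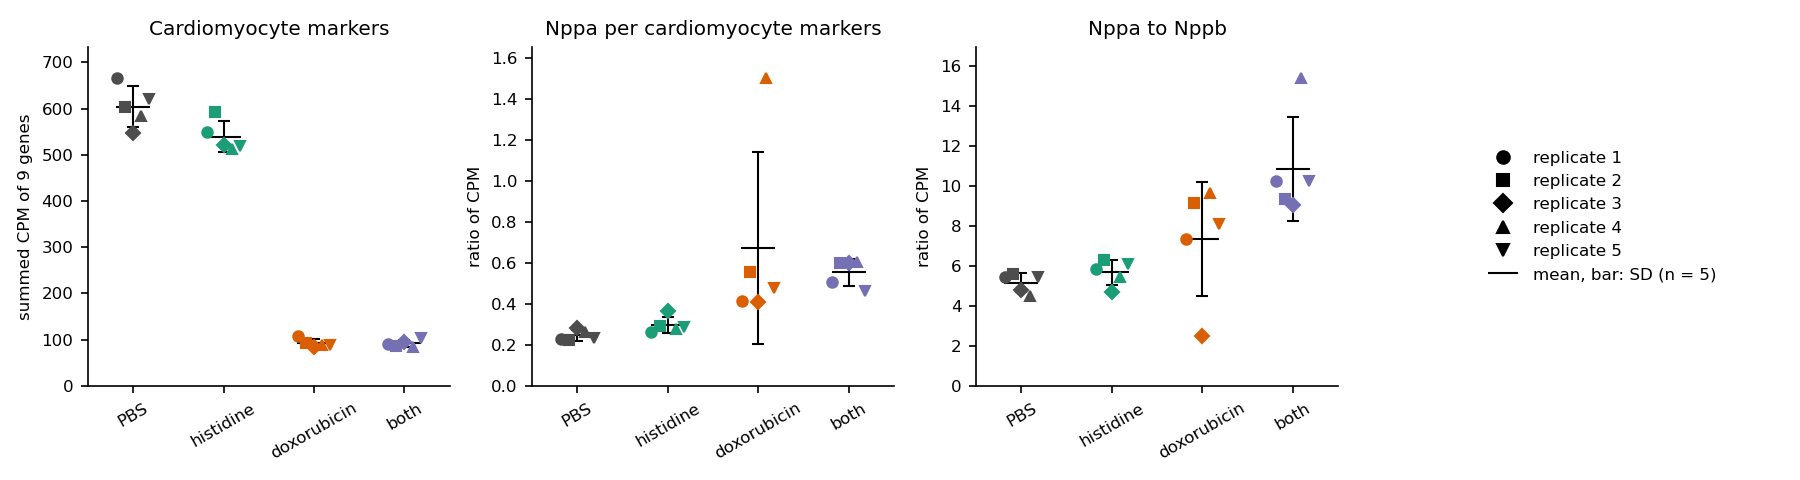
Summed CPM of the 9 cardiomyocyte markers, Nppa CPM divided by that sum, and the ratio of Nppa to Nppb CPM in each library, by group, with the mean as a line and the SD as a bar (n = 5). The marker sum is lower in every doxorubicin library, Nppa per marker sum is higher there, which did not hold for every single marker, and doxorubicin replicate 4 reaches 1.50.

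Doxorubicin replicate 4, the library with the high Nppa, differed from its group in markers of several cell types, atrial ones among them. The atrial marker sum was 6.41, 5.81, 4.42, 13.3 and 4.47 CPM in doxorubicin replicates 1 to 5. Replicate 4 was the highest, with Myl7, the atrial regulatory light chain, at 6.11 CPM and Myl4 at 5.27 CPM. Its sum of the 9 general cardiomyocyte markers was 88.9 CPM, inside the range of the group. Replicate 4 also had the highest smooth muscle and pericyte (5420 CPM), macrophage and leukocyte (66.6) and epicardial and mesothelial (85.5) marker sums of its group. Its endothelial sum was the lowest, at 11.8 CPM. As given above, 15.4% of all genes had this library far above the rest of its group. The part of these differences in the Nppa value was not tested.

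The 3 receptor genes changed in different directions with doxorubicin. Npr3 (ENSRNOG00000019184, chr2:60870594-60932955, minus strand), the clearance receptor, was at 120.2, 149, 176, 167 and 134 CPM in PBS and at 64.9, 59.5, 44.2, 71.9 and 65.4 CPM with doxorubicin. All doxorubicin libraries were below all PBS libraries. The log2 fold change was -1.29 ± 0.14, or 2.44-fold lower, with an edgeR adjusted p of 2.62132e-07. With histidine Npr3 was at 148, 145, 196, 141 and 119.7 CPM, and with both compounds at 71.6, 58.2, 70.3, 76.4 and 68.7 CPM. These groups were apart as well, at -1.12 ± 0.14, or 2.17-fold lower, with an edgeR adjusted p of 1.72102e-06, and both compounds against PBS gave -1.11 ± 0.14.

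Npr2 (ENSRNOG00000015991, chr5:57883171-57901580, plus strand), the receptor for C-type peptide, was at 81.1, 79.3, 74.7, 74.9 and 77.6 CPM in PBS and at 107, 102, 90.4, 72.5 and 99.4 CPM with doxorubicin. Doxorubicin replicate 4 was below the PBS libraries and the other 4 were above them. The rise was 0.28 ± 0.08 on the log2 scale, or 1.22-fold, with an edgeR adjusted p of 0.00788672, and 0.37 ± 0.06 without replicate 4. With histidine Npr2 was at 75.7, 76.6, 79.9, 72.5 and 76.6 CPM, and with both compounds at 106, 98.2, 105, 114 and 116 CPM. Here the groups were apart, with a rise of 0.50 ± 0.08, or 1.41-fold, and an edgeR adjusted p of 5.38891e-05. Both compounds against PBS gave 0.47 ± 0.08. Npr2 was the gene of the 7 that rose.

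Npr1 (ENSRNOG00000014684, chr2:175934181-175949505, minus strand), the ANP and BNP receptor, was at 18.0, 20.5, 21.1, 19.5 and 15.8 CPM in PBS and at 17.5, 14.2, 14.7, 11.8 and 14.6 CPM with doxorubicin. The groups overlapped, and replicate 4 was the lowest doxorubicin library. Npr1 fell by 0.38 ± 0.10 on the log2 scale against PBS, or 1.30-fold, with an edgeR adjusted p of 0.00358572. With histidine it was at 18.1, 20.03, 23.1, 19.04 and 19.3 CPM, and with both compounds at 16.3, 16.9, 16.4, 17.0 and 18.5 CPM. Both compounds against histidine gave -0.22 ± 0.10, which missed the threshold (edgeR adjusted p 0.0759561) and passed it without doxorubicin replicate 4 (0.0339983), although that library is in neither group and enters only through the shared estimate of spread. Against PBS the value was -0.16 ± 0.10, with an edgeR adjusted p of 0.226956.

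The balance of the receptor transcripts therefore differed between cultures with and without doxorubicin. Of the summed FPKM of the 3 receptors, Npr3 made up 76.4% ± 2.90 in PBS (72.3% to 79.5%), 76.5% ± 2.60 in histidine, 54.1% ± 6.25 with doxorubicin (46.9% to 64.1%) and 53.8% ± 1.56 with both compounds. Npr2 made up 19.6% ± 2.75 in PBS, 19.3% ± 2.29 in histidine, 40.6% ± 5.56 with doxorubicin and 40.8% ± 1.17 with both compounds. Npr1 stayed a small share, 3.96% ± 0.325 in PBS and 5.23% ± 0.784 with doxorubicin. The ratio of Npr3 to Npr2 in FPKM was 3.98 ± 0.695 in PBS (3.09 to 4.80) and 4.03 ± 0.638 in histidine (3.25 to 5.03). With doxorubicin it was 1.37 ± 0.386 (1.00 to 2.03) and with both compounds 1.32 ± 0.0752, so the libraries with and without the drug did not overlap. The ratio of Npr2 to Npr1 was 4.96 ± 0.673 in PBS and 7.79 ± 0.606 with doxorubicin (7.36 to 8.67), and the ratio of Npr3 to Npr1 was 19.4 ± 2.01 and 10.7 ± 2.77. Doxorubicin replicate 4 lay inside the group for Npr2 to Npr1 and was the highest for both ratios with Npr3. The receptors need not lie on one cell type, and which cells carried each transcript was not measured.

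**Figure D4:**
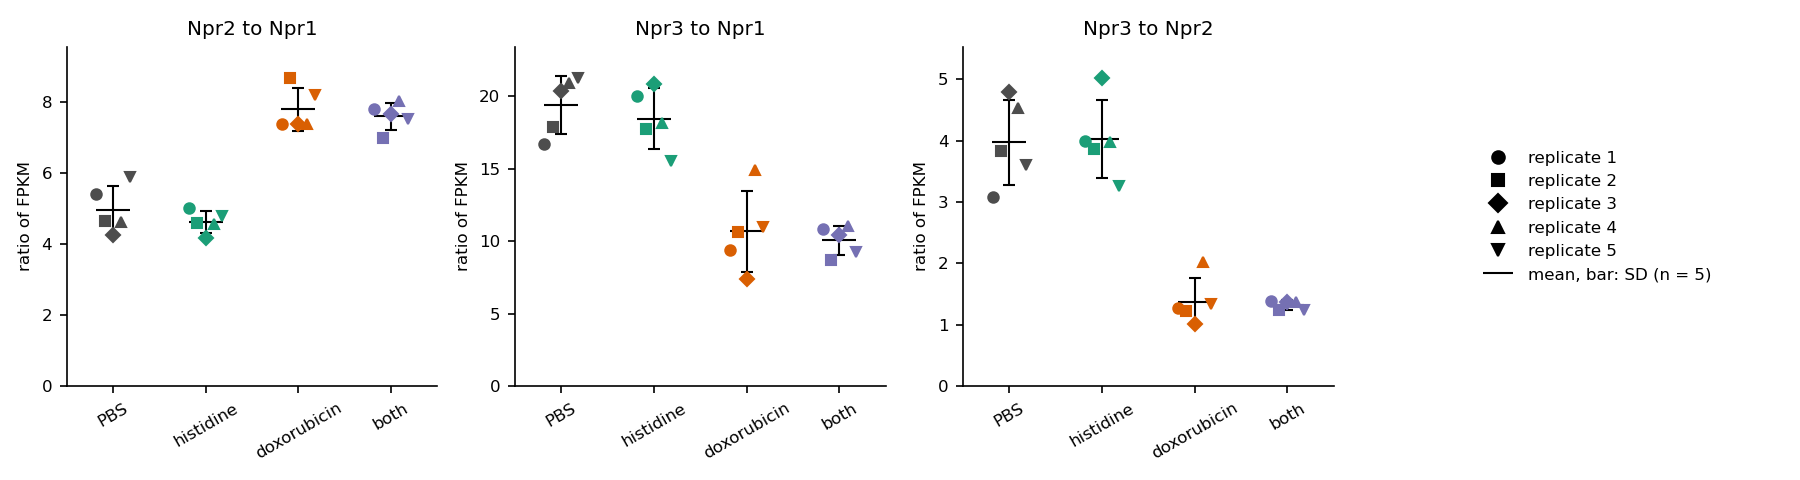
Ratios of the receptor transcripts in FPKM (reads per length and library size, axes from 0) in each library, with the mean as a line and the SD as a bar (n = 5). Npr2 to Npr1 is higher and Npr3 to Npr2 lower in all 10 libraries with doxorubicin than in the 10 without.

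Of the enzymes that end the signal, Pde5a fell and Mme passed no test. Pde5a (ENSRNOG00000014443, chr2:210858063-210999701, plus strand), the cGMP phosphodiesterase that sildenafil blocks, was at 15.6, 18.4, 17.3, 16.6 and 17.9 CPM in PBS and at 11.7, 12.1, 9.88, 8.65 and 10.6 CPM with doxorubicin. The groups were apart, with replicate 4 the lowest. The log2 fold change was -0.69 ± 0.10, or 1.62-fold lower, with an edgeR adjusted p of 6.93493e-06. With histidine Pde5a was at 14.6, 16.4, 15.9, 12.8 and 12.5 CPM, and with both compounds at 13.1, 12.6, 12.1, 12.7 and 11.6 CPM. These groups overlapped, and both compounds against histidine gave -0.22 ± 0.10 (edgeR adjusted p 0.0752447). It passed the threshold without doxorubicin replicate 4 (0.032755), without histidine replicate 4 (0.0490211) and without histidine replicate 5 (0.0381329). Against PBS the value was -0.47 ± 0.10, 1.38-fold lower, with groups that did not overlap and an edgeR adjusted p of 0.000578791. Mme (ENSRNOG00000009514, chr2:147722086-147803792, plus strand) averaged 11.8 ± 1.16 CPM in PBS, 12.4 ± 2.49 in histidine, 12.4 ± 1.30 with doxorubicin and 12.1 ± 1.55 with both compounds. Its 4 groups overlapped, and the log2 fold change for doxorubicin against PBS was 0.07 ± 0.12, with an interval of 2 SE either side from -0.18 to 0.31.

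Histidine alone moved none of the 7 genes past the threshold. For histidine against PBS, edgeR called 0 of the 7 genes, 0.0% of all genes passed and DESeq2 called 0 of the 7 and 5 of all genes. No gene of the 7 had groups that did not overlap, which held for 0.841% of all genes. At an unadjusted p under 0.05 there was 1 of the 7 genes and 312 of all 15449. That gene was Pde5a, at -0.25 ± 0.10, with a mean of 14.5 ± 1.76 CPM against 17.1 ± 1.12. The intervals of 2 SE either side ran from -0.39 to 0.61 for Nppa, -0.53 to 0.49 for Nppb, -0.27 to 0.28 for Npr3, -0.13 to 0.27 for Npr1 and -0.19 to 0.14 for Npr2. In this fit, changes of the peptide genes up to the ends of these intervals cannot be told from none. Doxorubicin replicate 4 is in neither group and enters only through the shared estimate of spread. Without that library the interval ran from -0.08 to 0.30 for Nppa and from -0.48 to 0.44 for Nppb. Histidine replicate 3 was the highest of its group for 6 of the 7 genes, all but Pde5a, and was the highest library for 25.6% of all genes. Without it Nppb was at -0.18 ± 0.26 and Nppa at 0.04 ± 0.27. That library also had the lowest fibroblast marker sum of its group, 58861 CPM, and the highest macrophage and leukocyte marker sum, 1928 CPM, and their part in its values was not tested.

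Adding histidine to doxorubicin likewise moved none of the 7 genes past the threshold. For both compounds against doxorubicin, edgeR called 0 of the 7 genes and 0.0% of all genes, and DESeq2 called 0 of the 7 and 20 of all genes. No gene of the 7 had groups that did not overlap (1.06% of all genes did). At an unadjusted p under 0.05 there were 4 of the 7 genes and 1940 of all 15449: Nppb at -0.87 ± 0.26, Npr1 at 0.23 ± 0.10, Npr2 at 0.19 ± 0.08 and Pde5a at 0.23 ± 0.10. Nppa gave -0.27 ± 0.25. The Nppa value changed sign without doxorubicin replicate 4, the library that stood apart. The Nppb value shrank without it, and further when replicate 3, also high in Nppb, was left out too. Without doxorubicin replicate 4 Nppa was at 0.23 ± 0.10 and Nppb at -0.65 ± 0.25, and without replicates 3 and 4 they were at 0.14 ± 0.10 and -0.21 ± 0.19. Npr1, Npr2 and Pde5a were then at 0.15 ± 0.10, 0.06 ± 0.06 and 0.11 ± 0.09.

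The interaction, which asks whether the doxorubicin effect differs with histidine, was called by edgeR for 0 of the 7 genes and 0.0% of all genes. At an unadjusted p under 0.05 there were 2 of the 7 genes and 1060 of all genes. Pde5a gave 0.47 ± 0.14 (edgeR adjusted p 0.630967), with means of 17.1, 14.5, 10.6 and 12.4 CPM in PBS, histidine, doxorubicin and both compounds. Nppb gave -0.85 ± 0.36 with the same adjusted p. Without doxorubicin replicate 4 these were 0.41 ± 0.12 and -0.63 ± 0.34. Without doxorubicin replicates 3 and 4 they were 0.36 ± 0.12 and -0.20 ± 0.25. Nppa gave -0.38 ± 0.35 with all libraries and 0.03 ± 0.13 without those 2. The larger fall of Nppa and Nppb in both compounds against histidine than in doxorubicin against PBS was thus not past the test as a difference.

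Beyond the 7 genes, 28 of 33 other genes of the cGMP pathway were in the table, and they moved in both directions. For doxorubicin against PBS 7 rose and 10 fell (edgeR), with a median log2 fold change of 0.03 beside 0.05 over all genes, of which 21.7% passed as higher and 21.5% as lower. For both compounds against histidine 5 rose and 9 fell (median 0.08 beside 0.01), where 19.9% and 20.3% of all genes did. For both compounds against PBS 8 rose and 8 fell (19.2% and 20.7% of all genes). None passed for histidine against PBS, for both compounds against doxorubicin or for the interaction, where 1, 5 and 3 had an unadjusted p under 0.05. Downstream of cGMP, Vasp, an actin regulator that the cGMP kinase phosphorylates, fell from 225 ± 5.83 CPM in PBS to 117 ± 23.6 with doxorubicin (-0.94 ± 0.10) and by 1.11 ± 0.10 for both compounds against histidine. Rgs2, a brake on G protein signals that the same kinase activates, rose from 90.5 ± 20.9 to 207 ± 42.4 CPM (1.19 ± 0.19) and by 0.85 ± 0.19 in the presence of histidine. Among the phosphodiesterases, Pde2a, which cGMP itself stimulates, fell by 1.12 ± 0.16 and 1.25 ± 0.16, and Pde3b, which cGMP inhibits, fell by 0.62 ± 0.07 and 0.49 ± 0.07 in these comparisons. Pde9a, selective for cGMP, rose by 1.85 ± 0.53 for doxorubicin against PBS from a low level of 0.224 ± 0.160 CPM. Ace, a peptidase of the angiotensin system, rose by 1.37 ± 0.28 from 1.22 ± 0.555 CPM, and the cyclic nucleotide exporter Abcc4 rose by 0.50 ± 0.13 for both compounds against histidine.

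The 4 genes that follow were chosen from the list after their values were seen. Gucy1a1 and Gucy1b1, the subunits of the nitric oxide receptor, fell by 1.68 ± 0.33 and 1.02 ± 0.26 for doxorubicin against PBS. For both compounds against histidine they fell by 1.00 ± 0.32 and 0.80 ± 0.26. Prkg1, the cGMP kinase, fell by 0.68 ± 0.14 and 0.47 ± 0.14 in the 2 comparisons. Smooth muscle and pericyte markers mark cells known to express these 3 genes. Of the 7 markers, 5 passed as lower for doxorubicin against PBS and 3 for both compounds against histidine, with 0 higher in each. Their part was not tested. Nppc, the gene of the C-type peptide that Npr2 binds, rose by 1.03 ± 0.41 for doxorubicin against PBS from 0.386 ± 0.141 to 0.788 ± 0.401 CPM, near the low end of what was counted.

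**Figure D5:**
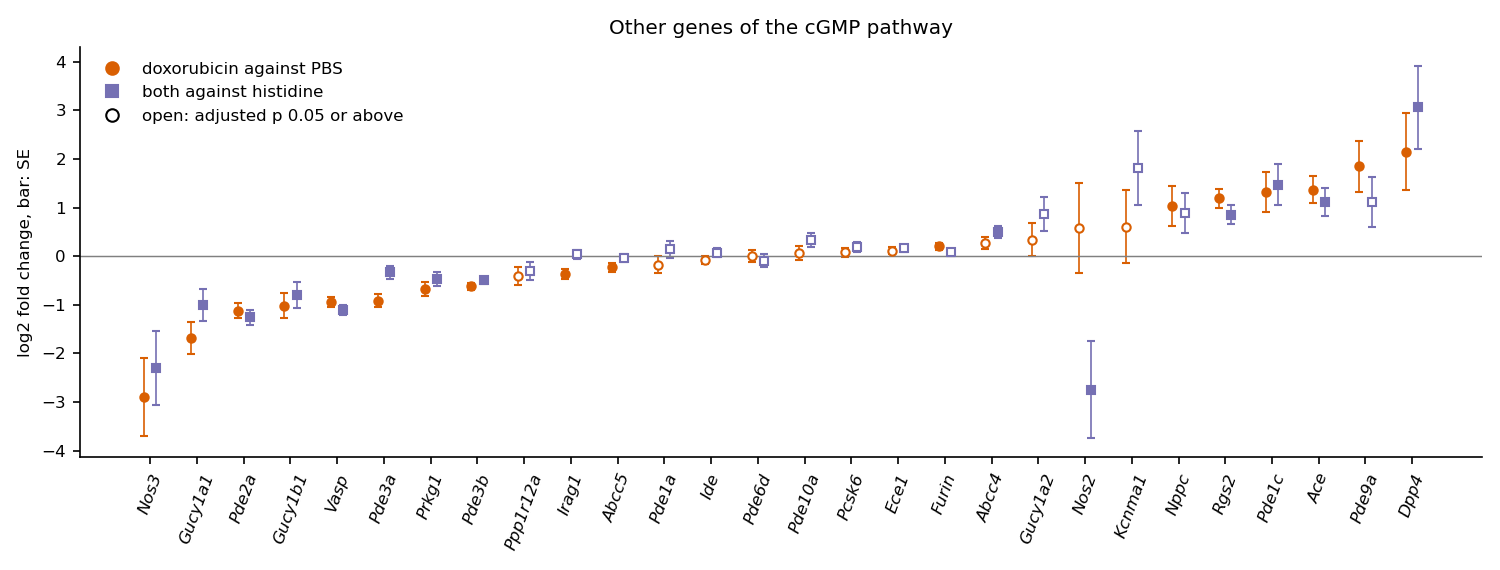
Log2 fold change (y axis, bar SE) of the 28 measured other genes of the cGMP pathway, ordered by doxorubicin against PBS (orange circles) with both compounds against histidine beside it (purple squares), open where the adjusted p was 0.05 or above. Values lie on both sides of 0, with 7 higher and 10 lower calls for doxorubicin against PBS.

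All 23 listed regulators of the peptide genes were measured, and their calls were mixed as well. For doxorubicin against PBS 5 rose and 9 fell, for both compounds against histidine 8 rose and 8 fell, and for both compounds against PBS 8 rose and 10 fell. Of all genes, 43.2%, 40.2% and 39.9% passed in these comparisons, in either direction. Gata4, the GATA factor known to act on the motif in the Nppa and Nppb promoters shown above, rose from 66.7 ± 2.65 CPM in PBS to 103 ± 4.24 with doxorubicin (0.62 ± 0.06) and by 0.69 ± 0.06 for both compounds against histidine. Mef2a rose by 0.42 ± 0.09 and 0.63 ± 0.09 in these comparisons. Hand2 rose by 0.73 ± 0.15 in the first, and Egr1, an early response gene, by 0.75 ± 0.11 in the second. Tbx20 rose by 0.41 ± 0.11 for both compounds against PBS. The transcripts of Gata4 and of the 2 peptides thus moved in opposite directions. Which cells carried each transcript was not measured, and a part of Gata4 in the peptide values was not tested. Atf3, a stress-induced repressor, fell by 3.21 ± 0.22 and 3.23 ± 0.22, Jun, a part of AP-1, by 0.95 ± 0.06 and 0.68 ± 0.06, and Myocd, a coactivator of SRF in heart and smooth muscle, by 2.23 ± 0.21 and 1.53 ± 0.21. For histidine against PBS none passed, with 3 at an unadjusted p under 0.05: Egr1 at -0.42 ± 0.11, Jun at -0.18 ± 0.06 and Fos at -0.50 ± 0.17.

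Likeness of pattern was measured as the root mean square difference of centred log2 CPM over the 20 libraries, among 8019 genes with a symbol and a mean of at least 5 CPM. The genes most like Nppa were Gmfg (0.208), Tmem176b (0.214) and Emb (0.224), where Nppa itself varied by 0.854. Gmfg shared the high value of doxorubicin replicate 4, at 20.6 CPM beside a group mean of 9.31. Nppb, the neighbour on the chromosome, ranked 477 in likeness to Nppa (0.563), and Nppa ranked 107 in likeness to Nppb. The genes most like Nppb were Upp1 (0.314), Relt (0.353) and Cenph (0.361). For Npr3 they were Rasl11b (0.136), Kcne4 (0.175) and Idh2 (0.182), for Npr2 Sash1 (0.0763), Emc1 (0.0763) and Stx16 (0.0801), and for Npr1 Pdzrn3 (0.114), Plod2 (0.120) and Scaf11 (0.124). For Pde5a they were Boc (0.0960), Prdm6 (0.123) and Dop1b (0.124), and for Mme Nhlrc3 (0.135), Uqcrfs1 (0.147) and Btbd1 (0.150). This measure counts the size of a change as well as its shape, and Nppb itself varied by 1.19. On it the 2 peptide genes, though adjacent and both lower with doxorubicin, were each closer to many other genes than to each other.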

How the data were processed

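RNA was captured on oligo(dT) beads and copied from random hexamers without marking the strand, per the labels' protocols, so reads of overlapping genes on opposite strands cannot be told apart. Per the submitters' processing notes, Trimmomatic and the build mRatBN7.2 were used. The aligner, counter and annotation were not given in the sources used here. Per gene, the deposited table gives whole read counts, not normalised, and FPKM values that the authors scaled to gene length and library size, per the file headers. Groups and replicate numbers were taken from the sample titles, and 0 columns were left without a sample.

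Symbols came from KEGG names and protein accessions in the table, matched to RefSeq (GRCr8); 10344 genes had 1, and 395 with shared symbols were left out. Counts were tested with edgeR 4.0.16 (R 4.3.3): filterByExpr, TMM, and 1 quasi-likelihood fit of 4 groups over 20 libraries, with Benjamini-Hochberg adjustment over all 15449 genes and a threshold of 0.05. The SE is the size of the log2 fold change over the square root of F. The procedure was tested on simulated data. Replicate numbers were not used as a block. Alternatives were a replicate block, DESeq2 1.42.0 and its size factors, no filter, limma 3.58.1 on log2(FPKM + 1) and log2(FPKM + 0.1), only the groups compared, and leaving out libraries. The text names every gene of the system, up to 3 genes per direction and comparison with the smallest p from each list, and the 3 genes most like each. Some results are not reported here. The genes of the system and all lists were chosen with earlier results of these data known.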

Additional observations from a re-analysis of the deposited data

Results flagged for a closer look

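In groups of 5, a library was taken as far from the rest when its gap to the nearest other library exceeded 0.71 of the group's range (Dixon's 95% critical value). Of 28 combinations of gene and group tested, 2 met this, and chance gives about 1 in 20. Nppa in doxorubicin replicate 4 was at 133.8 CPM, where the other 4 libraries lay between 34.5 and 51.6. Nppb in histidine replicate 3 was at 40.8 CPM, where the other 4 lay between 24.3 and 27.5.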

How the results depend on the processing

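No count of called genes, over the 7 genes or the cGMP pathway list, changed by more than 1.5 times in any alternative run. Setting aside single left-out libraries, 414 alternative values kept their direction and side of the threshold, 6 changed sign and 3 newly passed. With the replicate block, 6 of the 7 genes passed for doxorubicin against PBS, 4 and 5 for both compounds against histidine and against PBS, as without it, and the block changed no other call. Deviations of same-numbered libraries from their group means correlated between -0.077 and 0.19, and only some libraries correlated best with their own number. Histidine replicates 1 to 4 each correlated best with the doxorubicin library of the same number, while replicate 5 did not. Whether same-numbered libraries shared a preparation is not stated in the titles and was not tested. Npr2 for histidine against PBS was -0.02 with counts, 0.00073 with limma on log2(FPKM + 1) and 0.00077 on log2(FPKM + 0.1). Mme for both compounds against histidine was -0.04 with counts and 0.018 and 0.025 in these limma fits. Without doxorubicin replicates 3 and 4, Nppa for both compounds against doxorubicin was 0.14 (-0.27 with all libraries), and its interaction 0.027 (-0.38). In that fit Npr1 and Pde5a passed for both compounds against histidine (edgeR adjusted p 0.0376 and 0.0277), as did Npr1 in a fit of only the groups compared (0.0277).

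With each library left out in turn, 6 of the 7 genes passed for doxorubicin against PBS in every fit, 4 to 6 for both compounds against histidine, 5 against PBS and 0 in the other comparisons. Nppa for doxorubicin against PBS ran from -1.77 to -1.12 and Nppb from -1.92 to -1.57. Signs that changed belonged to values that passed in no fit: for histidine against PBS, Nppb (-0.18 to 0.042), Npr3 (-0.11 to 0.079) and Mme (-0.057 to 0.12); for both compounds against doxorubicin, Nppa (-0.42 to 0.23) and Mme (-0.11 to 0.018); for Mme, both compounds against histidine (-0.11 to 0.091) and against PBS (-0.040 to 0.087); and for the interaction, Nppa (-0.53 to 0.12) and Mme (-0.18 to 0.022). The cause of these changes was not tested. With 5 libraries a group, the SEs of Nppa and Nppb were about 0.25, and small changes of the peptide genes could not be detected. Without doxorubicin replicate 4 the SE for histidine against PBS was 0.096 for Nppa and 0.23 for Nppb.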

Other observations

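Among genes within 100 kb of the Nppb and Nppa pair, Clcn6 and Plod1 were lower with doxorubicin than in PBS (edgeR). Clcn6, a chloride and proton exchanger gene just downstream of Nppa on the other strand (chr5:158434299-158465059), went from 18.9 ± 2.10 to 11.9 ± 1.78 CPM, a log2 fold change of -0.67 ± 0.10 with an adjusted p of 1.882e-05. Plod1, a collagen lysyl hydroxylase gene, gave -0.34 ± 0.10. Agtrap gave -0.17 ± 0.12 and 2510039O18Rikl 0.20 ± 0.10, neither past the threshold. For both compounds against histidine Clcn6 (-0.48 ± 0.10) and Plod1 (-0.52 ± 0.10) passed the test, and Agtrap and 2510039O18Rikl did not. Clcn6 in doxorubicin replicate 4 was at 11.5 CPM, near its group mean, where Nppa was far above its own.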
